A study of Homo sapiens and Mus musculus with 6 samples.

Results

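The genes described here encode the subunits of the transcription factor NF-kB and proteins that regulate it, read through the chromatin contacts of their promoters. They are the 5 Rel-family genes NFKB1, NFKB2, REL, RELA and RELB, the IkB-family genes NFKBIA, NFKBIZ and BCL3, and the signalling regulators TNFAIP3 and TRAF1. A contact was taken when one of these 10 symbols named the fragment at either end of a listed call, and the mouse genes were found under the same symbols with the case ignored. By this rule 235 of 92929 listed calls in GM12878 and 102 of 101841 in mouse embryonic stem cells (mESCs) involved an NF-kB gene, through 11 named fragments in the human and 10 in the mouse genome.

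The contacts came from promoter Capture Hi-C (CHi-C), in which a Hi-C library of ligated restriction fragments is hybridised to RNA probes for fragments that carry promoters, called baits, and any fragment may appear at the other end. GM12878 is a human B-lymphoblastoid cell line obtained from the Coriell repository and was represented by 3 biological replicates. The mESCs were J1 cells of the 129S4/SvJae strain, grown on feeder fibroblasts that were reduced by passaging before harvest, with 2 biological replicates and 1 further Hi-C library without capture. No treatment or genetic change was applied to either cell type, and cell identity could not be checked against marker genes because contact calls carry no expression values. Species, cell type, capture design, number of replicates and sequencing depth all differed between the human and the mouse calls and cannot be told apart.

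NF-kB factors are dimers of Rel-family proteins that are held inactive by inhibitors of the IkB family until a kinase complex marks the inhibitor for destruction. NFKB1 and NFKB2 encode precursors that are processed to DNA-binding subunits, whereas REL, RELA and RELB carry activation domains. Lymphoblastoid lines are made with Epstein-Barr virus, whose latent membrane protein signals through TRAF adaptors to NF-kB, and several of these genes, NFKBIA and TNFAIP3 among them, are known NF-kB targets that form negative feedback loops.

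The promoters were first searched for the NF-kB consensus site, since it is the sequence through which these genes can respond to their own products. The consensus was searched on both strands in the 250 bases before each annotated gene start. It was present in 7 of the 10 human genes, against 7.8% of 19855 promoters of the same length, and in 4 of the 10 mouse genes, against 5.1% of 22220 promoters. The 8 human windows below are written 5′ to 3′ on the strand of the gene, with hg19 positions and the bases of each match in capitals.
NFKB1 (chr4:103422457-103422486, plus strand): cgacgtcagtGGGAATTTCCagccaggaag
NFKB2, distal (chr10:104155276-104155305, plus strand): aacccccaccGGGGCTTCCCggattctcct
NFKB2, proximal (chr10:104155431-104155460, plus strand): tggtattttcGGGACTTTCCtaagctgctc
REL (chr2:61108653-61108682, plus strand): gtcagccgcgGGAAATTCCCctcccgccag
RELB (chr19:45504581-45504610, plus strand): gtgacgcgtgGGGGTTTTCCcgttccccag
NFKBIA (chr14:35874017-35874046, minus strand): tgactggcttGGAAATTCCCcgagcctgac
NFKBIZ (chr3:101568109-101568138, plus strand): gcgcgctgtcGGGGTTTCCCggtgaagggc
TNFAIP3 (chr6:138188325-138188354, plus strand): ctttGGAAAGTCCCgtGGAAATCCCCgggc

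TNFAIP3 held 2 matches in its single window, and RELA, BCL3 and TRAF1 held none in the bases searched. The mouse matches are shown with mm9 positions because the windows of 2 genes can be set beside their human counterparts.
Nfkb2, distal (chr19:46379178-46379207, plus strand): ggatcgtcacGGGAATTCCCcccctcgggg
Nfkb2, proximal (chr19:46379206-46379226, plus strand): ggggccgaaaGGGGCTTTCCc
Rel (chr11:23671042-23671070, minus strand): gtaagcagcGGGAAATCCCCccccctccc
Relb (chr7:20214865-20214894, minus strand): gtgagcagcgGGGGTTTTCCcattcccttt
Nfkbia (chr12:56593644-56593673, minus strand): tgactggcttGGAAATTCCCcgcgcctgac

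The NFKBIA window, which belongs to the gene for the classical IkB inhibitor, was identical between the species at 29 of 30 bases, and the RELB window at 22 of 30. Both windows were centred on a match in each species, so agreement at the matched bases follows largely from that choice. No identity of other windows was set beside these counts. The capitals in the Rel window span 2 overlapping matches. A match is a description of the letters and not a measured binding site.

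The annotated start of a gene lay on a fragment with at least 1 call as bait for 8 of the 10 genes in GM12878, against 60.1% of 19874 protein-coding genes. In mESCs this held for 10 of 10, against 68.5% of 22225. The exceptions were NFKBIZ and TRAF1 in the human genome, for which the named fragments carry the start of another annotated transcript. The TRAF1 fragment (chr9:123690134-123691855, hg19) directly adjoins the fragment with the canonical start, and the NFKBIZ fragment (chr3:101541253-101550916) lies upstream of it. RELB was named on a pair of human fragments, one with the canonical start (chr19:45479555-45510608, shared with CLPTM1) and one in the last part of the gene (chr19:45532271-45542963, shared with CLASRP). The RELA and BCL3 fragments also carry other promoters, SIPA1 beside RELA and CBLC beside BCL3, so neither their contacts nor those of the RELB pair can be assigned to a single gene. The same holds for the human fragments of NFKB1, REL, TNFAIP3 and NFKBIZ. They are also named for AF213884.2, AC010733.4, RP11-356I2.4 and RP11-49I4.3, in this order.

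TRAF1, the adaptor of tumour necrosis factor receptors, had the most calls in GM12878, with 56. REL had 38, TNFAIP3 36, NFKB2 34, NFKB1 24 and RELB 21, while NFKBIA had 12, RELA 10, NFKBIZ 3 and BCL3 1. In mESCs the order was different. Relb had 34 calls and Nfkbia 32, Bcl3 followed with 9, and the remaining 7 genes had between 2 and 6. The median over the 10 genes was 22.5 calls in GM12878 and 4.5 in mESCs, whereas the median over all named symbols was 4 in both lists.

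**Figure D1:**
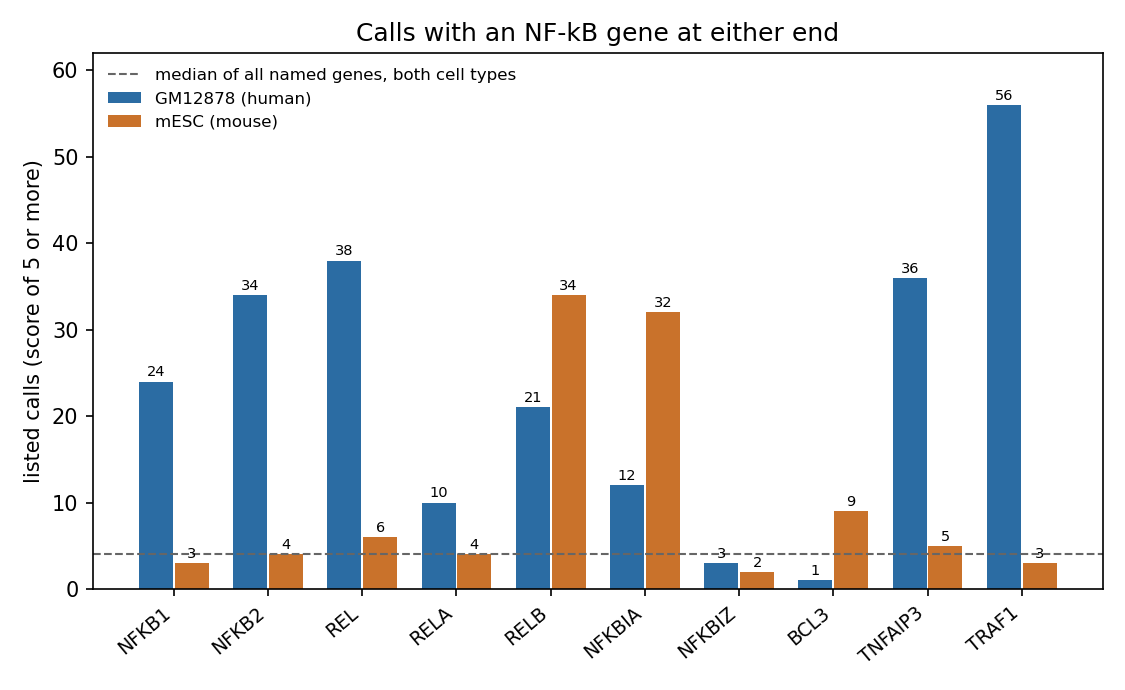
Number of listed calls with each NF-kB gene at either end, GM12878 in blue and mESCs in orange. The dashed line is the median of 4 calls over all named genes, the same in both lists. TRAF1 with 56 calls stands highest in GM12878, and RELB with 34 and NFKBIA with 32 in mESCs.

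Of the 8690 symbols with calls in both lists, 31.6% had at least 2-fold more calls in GM12878 and 34.6% at least 2-fold more in mESCs. Among the NF-kB genes 6 of 10 fell in the first class, namely NFKB1, NFKB2, REL, RELA, TNFAIP3 and TRAF1. NFKBIA and BCL3 fell in the second. RELB, with a GM12878 to mESC ratio of 0.618, and NFKBIZ, with 1.5, fell in neither. Of the 21 human RELB calls, 12 involved only the CLASRP-shared fragment, which lacks the canonical start. Without them RELB would fall in the second class. The ratio of GM12878 to mESC calls was 18.7 for TRAF1, 8.5 for NFKB2, 8 for NFKB1, 7.2 for TNFAIP3 and 6.33 for REL. It was 0.375 for NFKBIA and 0.111 for BCL3. The median log2 ratio was 1.99 over the NF-kB genes and 0.00 over all shared symbols. Each cell type has a single joint set of calls, so these ratios have no replicate spread and were not tested.

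The number of calls depends on how many fragments surround a bait, which the share of fragments called within 500 kb takes into account. The intervals given with shares are 95% Wilson intervals that cover counting error only, and neighbouring fragments are not independent. For the TRAF1 bait 53 of 262 fragments were called, or 20.2% (15.8 to 25.5), a share higher than that of 99.6% of listed baits in GM12878. The shares of REL, 12.4% (8.98 to 16.8), NFKB2, 12% (8.51 to 16.7), and TNFAIP3, 9.23% (6.58 to 12.8), had overlapping intervals. The median over all listed GM12878 baits was 1.17%, which lay inside the intervals of NFKB1, NFKBIZ and BCL3 and below those of the other genes. In mESCs Relb reached 12.7% (8.9 to 17.9) and Nfkbia 8.79% (6.19 to 12.3), against a median of 1.03% over all listed baits. Bcl3, at 3.48% (1.77 to 6.71), was the only other mouse gene whose interval did not include that median. The mouse Traf1 bait had 3 of 323 fragments called, or 0.929% (0.316 to 2.69).

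**Figure D2:**
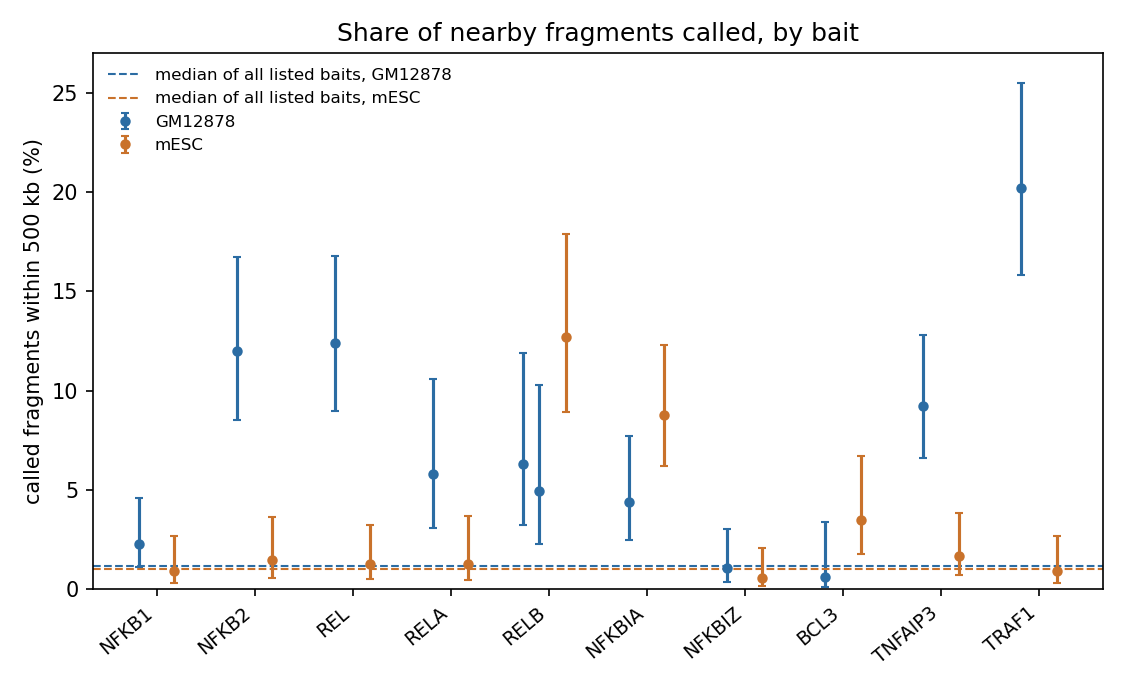
Share of the restriction fragments within 500 kb of each NF-kB bait that were called from it, in per cent, for GM12878 in blue and mESCs in orange; bars are 95% Wilson intervals and RELB has 2 human baits. Dashed lines mark the medians over all listed baits, 1.17% in GM12878 and 1.03% in mESCs. The TRAF1 interval in GM12878 (15.8 to 25.5) lies above the point estimates of all other baits shown.

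All calls of the NF-kB genes were in cis and spanned less than 1 Mb, as did most calls of the lists. In GM12878 92641 of 92929 calls were in cis, 1521 of them over more than 1 Mb, and in mESCs 101262 of 101841, 3436 of them over more than 1 Mb. The median distance between fragment midpoints was 145 kb in GM12878 (order-statistic 95% interval 128 to 166) against 174 kb for all cis calls, and 108 kb in mESCs (85.5 to 144) against 139 kb. The intervals of distance and score treat calls as independent, which calls of the same bait are not. Single genes had median distances from 37.1 kb (BCL3) to 505 kb (NFKB1) in GM12878. In mESCs they ran from 10.2 kb (TRAF1) to 398 kb (NFKB1), so the pooled medians do not describe each gene. The CHiCAGO score, which grows as the weighted p-value of an excess over background falls and is listed from 5 upwards, had a median of 6.97 in both cell types (6.58 to 7.35 in GM12878 and 6.43 to 7.54 in mESCs) against 6.62 over all calls in either list. The share of calls that joined a pair of baits was 28.5% in GM12878 (23.1 to 34.6) against 29.4% overall. In mESCs it was 45.1% (35.8 to 54.8) against 36.3%. These shares include calls in which only the other end carried an NF-kB gene, 31 in GM12878 and 13 in mESCs, and such calls join a pair of baits by construction. Among the calls with the NF-kB gene at the bait end the pooled share was 17.6% (13 to 23.5) in GM12878, below the overall value. In mESCs it was 37.1% (27.8 to 47.5). The GM12878 baits with the most calls had low shares, 3.03% for TNFAIP3, 5.66% for TRAF1 and 14.7% for REL. The share was 24.1% for NFKB2 and 100% for RELA and BCL3, so the pooled value does not describe each gene.

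**Figure D3:**
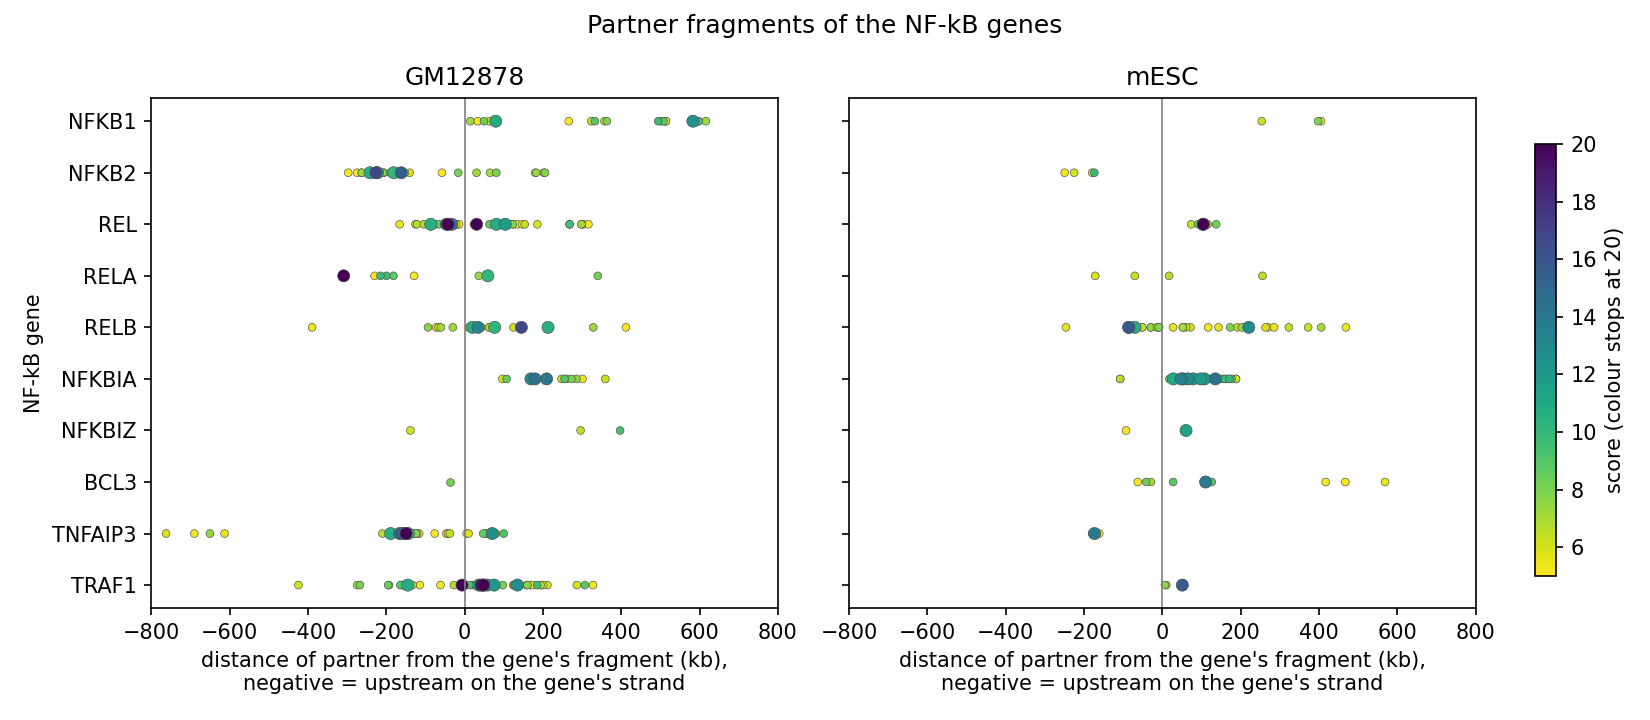
Distance of each partner fragment from the fragment of the NF-kB gene, in kb along the strand of the gene, with upstream to the left; 1 point per call, coloured by score, and larger where the score was 10 or more. In both cell types every NFKB1 call lies downstream, the NFKBIA calls lie downstream except for 2 in mESCs, and TNFAIP3 has partners between 116 and 210 kb upstream.

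The read count listed for a call is the authors' value combined over replicates with weights, and not a total of reads. It fell with distance for the NF-kB genes as it did in the lists as a whole. In GM12878 the 45 NF-kB calls under 50 kb had a median of 36 reads, equal to that of all calls in this class. The 60 calls between 200 and 500 kb had a median of 12 reads, again equal to that of all calls. In mESCs the medians were lower than those of all calls, with 22 against 33 reads under 50 kb and 6 against 9 reads between 200 and 500 kb. The calls of Bcl3 had a median of 6 reads, with 3 calls on 3 reads each, and those of Relb a median of 10.

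**Figure D4:**
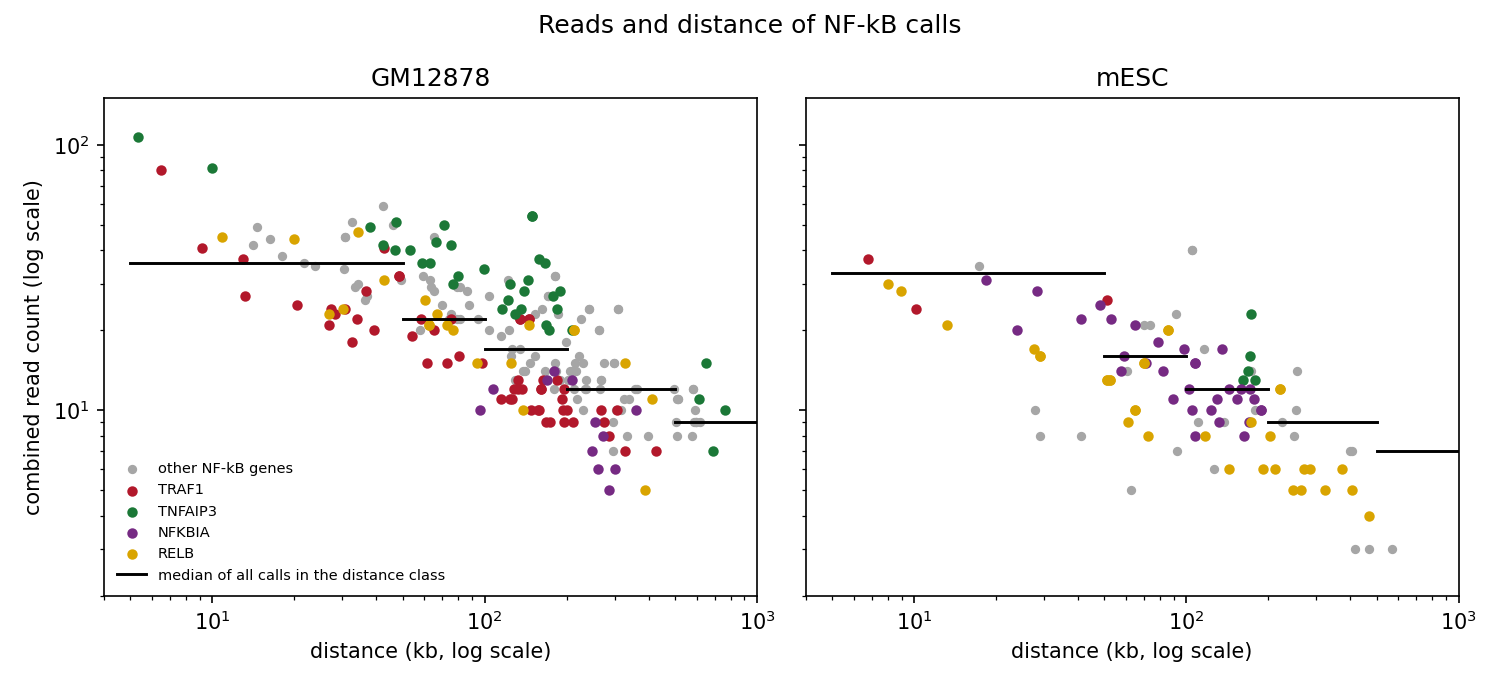
Combined read count of each NF-kB call against the distance between its fragments, both on log scales, with 4 genes in colour and the rest in grey. Black lines give the median of all listed calls in 5 distance classes. In GM12878 the TNFAIP3 points lie mostly above the black lines, up to 107 reads, and in mESCs the RELB points beyond 200 kb lie at or below 12 reads.

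NFKB1, which encodes the precursor of the p50 subunit, contacted only sequence downstream of its start in both species. In GM12878 there were 24 calls. From its own bait 4 reached fragments between 14.5 and 79.4 kb away that still lie inside NFKB1, and 14 of all its calls lay between 494 and 616 kb. The distal group lay over SLC9B1 and SLC9B2, a pair of sodium-proton exchanger genes, and BDH2, a dehydrogenase gene, with its far end over CENPE. It rested on 8 to 12 reads a call, with scores from 5.21 to 12.42. The highest score, 12.42, was given to SLC9B2 as the bait, and the same 12 reads scored 8.57 from the NFKB1 end. The most reads, 49, and the longest distance, 616 kb, belonged to unnamed fragments. AF213884.3, MANBA, RNU7-151P and snoU13 called NFKB1 from their own baits with scores from 5.05 to 8.95. In mESCs there were 3 calls, at Bdh2 (405 kb, 7 reads, score 5.73), at the fragment beside it (398 kb, 7 reads, score 7.96) and at Ube2d3 (254 kb, 10 reads, score 6.23), which encodes a ubiquitin-conjugating enzyme. A human NFKB1 call also reached the annotated start of UBE2D3 (11 reads, score 6.46), on a fragment without a name in the list.

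NFKB2, the precursor gene of the non-canonical pathway, had most of its partners upstream, 27 of 34 calls in GM12878 and 4 of 4 in mESCs. The human calls between 140 and 297 kb upstream numbered 25, on 9 to 32 reads. They held an unbroken run of 10 called fragments over 34.1 kb. The highest score was 16.88 at an intergenic fragment (chr10:103927798-103929406, 226 kb, 22 reads). Named partners on this side were LDB1, PPRC1, NOLC1, ELOVL3 and the shared fragment of GBF1 and PITX3, with scores at their strongest end from 5.19 to 10.72. On the other side NFKB2 contacted TMEM180 with 45 reads (65 kb, score 7.03), its highest read count, and was called from the bait of CUEDC2 and PSD. The mouse calls lay between 173 and 249 kb upstream. The strongest of them (173 kb, 14 reads, score 9.97) overlapped Elovl3 and Pitx3, and the farthest overlapped Pprc1.

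REL, the c-Rel subunit that is prominent in lymphocytes, was flanked by calls on both sides in GM12878, 14 upstream and 24 downstream. The 6 nearest upstream calls, at 14.1 to 46.1 kb, carried 36 to 59 reads. One of them had the highest read count of the gene, 59, and its highest score from the REL bait, 20.51 (chr2:61061548-61066610, 42.4 kb, inside the divergent transcript REL-DT). Downstream, 10 calls at 63.5 to 125 kb lay over PUS10, a pseudouridine synthase gene. The pair of REL and RNU4-51P, which lies inside REL at 30.8 kb, had 45 reads and a score of 5.14 from REL but 34.1 from RNU4-51P, the highest score of all NF-kB calls. The other named partners were PAPOLG, KIAA1841, C2orf74, AHSA2 and the shared fragment of PEX13 and PUS10, and the longest call spanned 316 kb. In mESCs all 6 calls lay downstream. The pair of Rel and Pus10 had 40 reads over 105 kb, the most reads of any NF-kB call in mESCs, with scores of 13.71 from Rel and 20.51 from Pus10. The bait of 0610010F05Rik called Rel on 9 reads with a score of 8.33.

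RELA, the p65 activation subunit, had 10 calls in GM12878, every one to another bait. The strongest was to SART1, a spliceosome gene (309 kb, 24 reads), with a score of 20.59 from RELA and 5.17 from SART1. The most reads, 32, joined it to the fragment of EHBP1L1 and KCNK7 (59.4 kb, score 10.13), and the longest call reached CDC42EP2 (340 kb, score 8.18). MAP3K11, OVOL1, SNX32, MUS81, EFEMP2 and CTSW were on the other partner fragments, with scores from 5.15 to 9.77. In mESCs Rela had 4 calls, to Gm962, Ctsw, Tigd3 and a fragment of the adjacent Sipa1, on 14 to 35 reads with scores from 5.89 to 6.57. CTSW, which encodes cathepsin W, was the partner symbol found in both lists, at 230 kb in the human and 171 kb in the mouse.

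RELB, the subunit of the non-canonical pathway, had 21 calls in GM12878 over its pair of fragments and 34 in mESCs. The fragment shared with CLASRP, which lacks the canonical RELB start, took part in 13 of the 21, and 12 of these did not involve the fragment with the start. The calls on it cannot be assigned to RELB rather than CLASRP, and they include the strongest. The highest human score, 16.83, came from the bait of BLOC1S3 and TRAPPC6A (145 kb, 21 reads), and the highest read count, 47, from a fragment of CLASRP and ZNF296 (34.2 kb, score 13.24), both with the CLASRP-shared fragment. From the fragment with the RELB start the highest score was 10.22, on 20 reads. The longest human call reached the fragment of CD3EAP and PPP1R13L (412 kb, 11 reads, score 5.03). The pair of RELB fragments was itself called as a contact, at 42.5 kb with 31 reads and a score of 6.03. In mESCs the highest score, 15.82, was with Gm20512 (85.5 kb, 20 reads), the most reads, 30, with an unnamed fragment of Clptm1 at 8.03 kb, and the longest call was 469 kb (4 reads, score 5.4). RELB shared 6 partner symbols between the species. CD3EAP, CKM and CLASRP were called in GM12878 with the fragment of the RELB start, and APOC4, BLOC1S3 and MARK4 only with the CLASRP-shared fragment. The contact with CKM, the muscle creatine kinase gene, had 15 reads and a score of 7.23 over 329 kb in GM12878 and 12 reads and 12.73 over 221 kb in mESCs.

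NFKBIA, the gene of the classical inhibitor, contacted the same side in both cell types. In GM12878 all 12 calls were downstream, between 96.4 and 359 kb, on 5 to 14 reads. The strongest was at a fragment of PRORP (chr14:35691094-35695381, 180 kb, 14 reads, score 14.44), which was also the call on the most reads, and the farthest reached FAM177A1. One of the 12 came from the bait of KIAA0391 and PPP2R3C (286 kb, 5 reads, score 7.75). In mESCs 30 of 32 calls were downstream, between 18.4 and 188 kb, with a longest run of 9 called fragments over 44.3 kb. The highest mouse score was 14.46 (chr12:56456244-56459073 in mm9, 17 reads, inside 1110008L16Rik), and the read count was highest, 31, at the nearest fragment (18.4 kb, score 8.39). Psma6, which encodes a proteasome subunit, called Nfkbia from its own bait (8 reads, score 11.38). 1110008L16Rik marked the far edge of the block at 188 kb (10 reads, scores 5.21 and 6.1), and Insm2 lay on the opposite side at 108 kb (15 reads, scores 6.18 and 6.6). Matched by symbol, called fragments overlapped PSMA6 and PPP2R3C in both species. Symbols that differ, such as PRORP and 1110008L16Rik, were not compared as possible counterparts. The calls of NFKBIA were fewer in GM12878 and reached farther, with a median distance of 251 kb against 106 kb in mESCs.

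NFKBIZ and BCL3 encode nuclear IkB proteins that modulate NF-kB at its targets, and they had the fewest calls in GM12878. The 3 NFKBIZ calls were to RPL24 (138 kb, 14 reads, score 6.05) and to a pair of fragments in introns of ZPLD1, of which the farther one scored higher (397 kb, 8 reads, score 9.42). In mESCs the 2 calls of Nfkbiz were to U6.711 (60.6 kb, 14 reads, score 11.28) and Cep97 (92.6 kb, 7 reads, score 5.21). The single BCL3 call was to snoZ6 (37.1 kb, 27 reads, score 8.15) from a bait fragment of 47.5 kb, longer than that of any other NF-kB gene. Mouse Bcl3 had 9 calls, all to other baits, with the highest score for Gm20512 (111 kb, 9 reads, 13.78), the most reads for Cblc (10 reads, score 8.94) and the longest distance for 1700058P15Rik (569 kb, 3 reads, score 5.47). Ceacam16, Ceacam19, Ckm and Cd3eap were also among its partners.

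TNFAIP3, the ubiquitin-editing enzyme that ends NF-kB signalling, had the most reads of any NF-kB call, 107, at the fragment 5.33 kb downstream of its bait, with a score of 5.36. A block of 17 calls lay between 116 and 210 kb upstream, over the non-coding transcripts LINC03004 and LINC02539, on 20 to 54 reads. Within it the bait of AL357060.1 (150 kb, 54 reads) scored 20 from its own end and 10.99 from TNFAIP3, and the neighbouring fragment (chr6:138025955-138036419, 37 reads) scored 15.24. Another 9 calls lay between 47.4 and 99.9 kb downstream, on 32 to 51 reads. Among the farthest partners were IFNGR1, the interferon gamma receptor gene (650 kb, 15 reads, score 7.38), IL22RA2, an interleukin decoy receptor gene (690 kb, 7 reads, score 5.35), and an intergenic fragment at 763 kb (10 reads, score 5.82). All 5 mouse calls lay upstream, within 161 to 179 kb, in intergenic sequence. The strongest of them (chr10:18906002-18907949 in mm9, 173 kb) had 23 reads and a score of 13.79, and the other 4 had 13 to 16 reads with scores from 5.28 to 7.74.

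The 56 TRAF1 calls in GM12878 were divided between 18 upstream and 38 downstream of the gene and spanned 758 kb. Between 13 and 80.6 kb downstream there were 18 calls, over TRAF1 itself, PHF19, a Polycomb-associated gene, and CUTALP. The pair of TRAF1 and PHF19 (48.4 kb, 32 reads) scored 12.65 from TRAF1 and 27.77 from PHF19, and the fragment beside it (chr9:123646231-123650628, 42.6 kb, 41 reads) scored 22.38, the highest value from the TRAF1 bait. A further 16 calls lay between 124 and 211 kb downstream, over B3GALT9, FBXW2 and the intergenic sequence beyond, with FBXW2 as the named partner (135 kb, 22 reads, scores 9.85 and 12.51). Upstream, the fragment at 6.51 kb in an intron of the complement gene C5 had 80 reads, the most of this gene, and a score of 20.88. CNTRL, a centriole gene 145 kb upstream, had 22 reads and scores of 9.45 and 10.78, and the farthest call reached STOM at 424 kb (7 reads, score 6.15). The 3 mouse calls were to Phf19 (51.2 kb, 26 reads, score 15.69) and to a pair of fragments within Traf1, on 24 and 37 reads with scores of 6.21 and 7.58. The human bait is 1.72 kb long and the mouse bait 1.79 kb, but only the mouse bait holds the annotated gene start used here. Whether this bears on the numbers of calls was not tested.

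The other ends of the 204 GM12878 calls made from NF-kB baits carried an annotated gene start in 14.7% (10.5 to 20.2), an exon without one in 47.1%, an intron in 23.5% and no gene in 14.7%. For the 89 such calls in mESCs a gene start was present in 33.7% (24.7 to 44). Over all calls the other end carried a gene start in 23.7% in GM12878 and 32.9% in mESCs. The pooled NF-kB share was thus below that of the whole list in GM12878 and close to it in mESCs. The GM12878 value is weighted towards the baits with the most calls, TRAF1 (4 of 53), REL (2 of 34) and TNFAIP3 (0 of 33). NFKB2 had 6 of 29 and RELA 9 of 9, so the pooled share does not describe each gene. The annotations used for the 2 species differ in how gene starts are defined. No call joined 2 different NF-kB genes in either list. In mESCs 5 fragments were called with both Relb and Bcl3, whose baits lie on the same chromosome, among them those of Ckm, Cd3eap and Gm20512. No fragment was called with more than 1 NF-kB gene in GM12878, where BCL3 had a single call.

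Of 70 pairs of an NF-kB gene and a named partner in GM12878 and 36 in mESCs, 10 occurred in both lists, which is 14.3% of the human and 27.8% of the mouse pairs. Over all pairs of named symbols the shares were 6.51% and 12.3%. This baseline is unlike the NF-kB set, because all 10 NF-kB genes have calls in both lists. Of 21998 human and 17014 mouse symbols only 8690 do, so many of the other pairs could not match. RELB accounted for 6 of the 10. The others were NFKB1 with BDH2, REL with PUS10, RELA with CTSW and TRAF1 with PHF19. Names are given only to baited fragments, and 36% of the human baits with calls carried several symbols but 0.0369% of the mouse baits, so the annotated genes under every partner fragment were also compared. NFKB2 then shared ELOVL3, PITX3 and PPRC1 between the species, whereas NFKBIZ and BCL3 shared no symbol. The human BCL3 partner overlapped CEACAM16-AS1 and a mouse Bcl3 partner overlapped Ceacam16, which differ as symbols. Cblc, another mouse partner, lies on the BCL3 fragment itself in the human genome. The mouse TNFAIP3 partners overlapped 0 annotated genes, so no sharing could be seen for this gene. For NFKBIA, the human partner named KIAA0391 and PPP2R3C and the mouse partner named 1110008L16Rik both carry PPP2R3C. Their listed names do not match, so this pair was not counted among the shared named partners. Matching was by symbol throughout, so any other gene that goes by unlike names in the human and mouse lists was also missed.

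A pair of baits can be called from either end, and the read count is the same while the score depends on the bait. This occurred for 17 NF-kB pairs in GM12878 and 10 in mESCs, with the higher score from the partner in 11 and 6 of them. The bait with the most similar set of called fragments was sought on the same chromosome by the Jaccard index, with at least 3 fragments shared. In GM12878 the index was highest for RELA, 0.5, with the bait of MIR4690 and SIPA1, 18 kb away, which shared 5 fragments. For NFKB2 it was that of FBXL15 and PSD, 20.4 kb away, with 14 fragments shared (index 0.438), for REL that of PAPOLG (0.263), for NFKB1 that of SLC9B1, 514 kb away (0.211), and for TNFAIP3 that of AL357060.1 (0.227). For RELB it was 0.312 between the CLASRP-shared fragment and the bait of CLPTM1 and CTB-129P6.11, and 0.3 between the fragment with the RELB start and a bait of GEMIN7, MARK4 and ZNF296. NFKBIA reached 0.111 with FAM177A1, 359 kb away, and TRAF1 0.0545 with CNTRL, with 3 of its 53 fragments shared. In mESCs the values were 0.444 for Rel with Gm12061, 0.348 for Relb with Nkpd1, 0.333 for Rela with Gm16538, 0.316 for Bcl3 with Bcam and 0.176 for Nfkbia with Aldoart2.

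The mESC contacts could be set beside the Hi-C library, in which 25-kb bins were tested by the authors. Of the 102 NF-kB calls, 3 had both fragment midpoints inside a significant bin pair, or 2.94% (1.01 to 8.29), against 11.6% of all 97826 mESC calls under 1 Mb. All 3 belonged to Relb and to fragments of Clptm1 within 13.2 kb, in 1 pair of overlapping bins with 111 reads against 54.2 expected. None of the 32 Nfkbia calls lay in a significant bin pair, which by counting error alone allows a share of up to 9.38%.

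Other genes of the pathway were counted by the same rule. Of 32 genes for kinases, adaptors, ubiquitin ligases and further IkB proteins, 29 had a call in GM12878 and 21 in mESCs. The genes with a call had medians of 8 and 4 calls, beside 4 over all named symbols in either list. The annotated start lay on a fragment with a call as bait for 23 of the 32 in GM12878, or 71.9%, and for 27 in mESCs, or 84.4%, to be read against the 60.1% and 68.5% of protein-coding genes given above. In mESCs 6 genes without a call by name, IKBKG, TRADD, RNF31, SHARPIN, NFKBIB and NFKBIE, had their start on such a fragment under the name of another gene. BIRC2, a ubiquitin ligase of the TRAF complexes, had the most in GM12878, with 64, and 2 in mESCs. RNF31, the catalytic subunit of the linear ubiquitin ligase, had 53 by name in GM12878. Its human start fragment, shared with PSME2, had 22 calls as bait and 10 as other end. The mouse start fragment, named for Psme2, had 9 calls as bait and 2 as other end. MAP3K7, RIPK1 and TRAF5 had none by name in GM12878. In mESCs NFKBID, another nuclear IkB gene, had the most, with 79, against 24 in GM12878. Of the 19 genes with calls in both lists, 9 had at least 2-fold more in GM12878 and 5 at least 2-fold more in mESCs, to be read against the shares of 31.6% and 34.6% over all shared symbols.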

How the data were processed

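Per the study's methods, the authors aligned the CHi-C reads with HiCUP to hg19 or mm9 (Bowtie 1.1.0 in the submitters' notes), ran CHiCAGO jointly on all replicates of a cell type and deposited calls with a score of at least 5. The deposited read count of a call combines the replicates with weights from size factors (a rounded weighted average in the supplementary formula), so it is no total, and no test across replicates was possible. Depth per library was not analysed here. For the Hi-C library, HOMER 4.7 gave the deposited read count, expected signal and adjusted p-value (under 0.05) of each 25-kb bin pair. The Hi-C list of pairs over 1 Mb was not used.

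Symbols were split at semicolons, vertical bars and commas, since the mouse list uses the latter, and transcript suffixes were removed. Fragments matched a HindIII digest of the same genome build in 100% of cases, and genes were taken from GENCODE (canonical starts in human, outermost gene starts in mouse). Python 3.11.15 was used, with functions tested on simulated data. Named were, per gene, the calls with the highest score, longest distance and most reads, baited partners, the most similar bait and partners shared by the species; others were named after their values were seen. The genes and lists were chosen with earlier results of these data known.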

Additional observations from a re-analysis of the deposited data

How the results depend on the processing

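Of 48 alternative values, 36 stayed within 1.5 times the main count or within the interval of the main value, and 12 moved further. At a score of 10 the calls numbered 40 in GM12878 and 18 in mESCs, the median GM12878 distance was 119 kb, the median scores were 12.54 and 12.77, the bait-to-bait shares were 37.5% and 55.6%, and the Hi-C share was 0%. With at least 10 reads the median mESC distance was 84 kb. The bait-to-bait share in GM12878 was 22.9% with each pair counted once, 22.9% in the browser list and 17.6% with members at the bait end only. No paired analysis was possible because the calls combine the replicates of each cell type and no column carries a replicate. Calls on 3 to 6 reads, most of them from Relb and Bcl3, rest on little depth. Contacts under a score of 5 are not in the lists, so an unlisted contact is not shown to be missing.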
